A study of Mus musculus with 9 samples.

Results

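Fibronectin, the thrombospondins and 5 further matricellular genes were described here through the open chromatin around them: Fn1, Thbs1, Thbs2, Tnc, Sparc, Postn, Tgfbi and Spp1. A peak of the deposited table was taken as a member where its centre lay inside one of these 8 genes, or else where the nearest end of any protein-coding gene, within 50 kb, was an end of one of them. This gave 84 of the 75936 peaks. Fn1 had 25, Tnc 14, Tgfbi 10, Sparc 9, Thbs2 8, Spp1 7, Thbs1 6 and Postn 5, and no centre lay inside more than 1 gene. All 84 entered the test. An assigned gene is the nearest by position and not a tested target.

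The libraries come from ATAC-seq of D2A1-d, a murine breast carcinoma line grown in culture. The assay uses a transposase to cut and tag accessible DNA, so that a taller peak stands for more open chromatin. Of the 3 groups of 3 libraries, the first carried a non-targeting control hairpin (NTC; genotype given as WT). The other groups carried the hairpins shMed1 #2 and shMed1 #4 (genotype given as Med1 Knockdown). All were cultured cells labelled as untreated, the titles number them as biological replicates, and how far a replicate number marks a separate transduction is not stated. The comparisons address what lowering Med1, a subunit of the Mediator coactivator complex, does to open chromatin.

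Matricellular proteins are secreted into the extracellular matrix and regulate how cells bind to it, rather than serving mainly as its scaffold. Fibronectin is assembled by cells into fibrils that integrins bind. Thrombospondins, tenascin C, SPARC, periostin, TGF-beta-induced protein and osteopontin are known for roles in adhesion, matrix turnover and wound repair, and in the stroma of breast tumours and the niches of disseminated tumour cells.

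Depth was 34.8 to 53.7 M reads in peaks per library, with a median of 162 to 252 reads per peak. The values are DESeq2-normalised counts, that is, reads divided by a size factor for each library. After this scaling the totals still differed, at 41.3 ± 0.16 M in NTC, 43.9 ± 0.39 M in shMed1 #2 and 43.4 ± 0.30 M in shMed1 #4 (SD, n = 3). Setting all totals equal lowers the median log2 fold change of all peaks to -0.10 with shMed1 #2 and -0.08 with shMed1 #4, so results that depend on this choice are named. Hairpins act on RNA, so ATAC-seq does not check the knockdown: the gene-end peak of Med1 held 2114 ± 41.3 normalised counts in NTC, 2023 ± 143 in shMed1 #2 and 1971 ± 73.1 in shMed1 #4. Of the 5 mesenchymal markers, the strongest gene-end peaks averaged 4492 normalised counts in Vim, 1703 in Twist1 and 234 in Zeb1, and Cdh2 and Prrx1 had no peak within 1 kb of an end. Of the 7 epithelial markers Krt18 had 168 and Krt14 120 at an end and the other 5 had none there, though the strongest Krt18 peak of any class averaged 4075. Of the 5 fibroblast markers Col1a1 and Pdgfrb had 1249 and 1203, Dcn and Pdgfra had none at an end and Lum had no peak. The blood markers Csf1r and Itgam had 112 and 56.9 and the endothelial marker Cdh5 111, while Ptprc, Cd3e, Pecam1, Kdr and Tek had none at an end. By the strongest peak of any class, Zeb1 averaged 3741, Prrx1 1308 and Cdh2 342. Krt8 averaged 1274, Cdh1 879, Epcam 433, Krt14 363, Krt5 188 and Cldn7 102, and Pdgfra 1056 and Dcn 187. Ptprc averaged 823, Cd3e 265, Itgam 249 and Csf1r 112, and Kdr 1362, Pecam1 766, Cdh5 611 and Tek 83.7. Marker sums moved with the groups. Over the libraries of NTC, shMed1 #2 and shMed1 #4 in turn, the epithelial sums held 15213 to 15559, 16015 to 16865 and 16038 to 16702, and the mesenchymal 23179 to 23983, 25414 to 25707 and 24700 to 25863. The fibroblast sums held 13158 to 13559, 12544 to 12955 and 13659 to 14065, the blood 2704 to 2910, 2910 to 3187 and 2834 to 3106, and the endothelial 5592 to 5815, 6690 to 7097 and 5678 to 5913. Under the deposited scaling, epithelial and mesenchymal sums lay wholly above NTC with each hairpin, and so did the library totals themselves. The marker sums were not worked out with equal totals, so how far they depend on the scaling is not given here. The part of these sums in the results was not tested.

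The sequences just upstream of the start sites show what lies under the start-site peaks described here. Promoter windows were found in RefSeq (GRCm38.p6) for 6 of the 8 genes, not for Fn1 and Thbs1. Of their 9 windows of 250 bases, 1 of Spp1 (chr5:104434861-104435110, plus strand) and both of Tnc (that of the outermost start at chr4:64047016-64047265, minus strand) lay wholly inside a member peak, and 44 bases of that of Sparc (chr11:55420081-55420330, minus strand) lay in one. These 3 windows, which belong to start-site peaks with different outcomes, are printed 5′ to 3′, each ending at the base before the start site. Capitals mark the matches to the searched motifs.
Spp1: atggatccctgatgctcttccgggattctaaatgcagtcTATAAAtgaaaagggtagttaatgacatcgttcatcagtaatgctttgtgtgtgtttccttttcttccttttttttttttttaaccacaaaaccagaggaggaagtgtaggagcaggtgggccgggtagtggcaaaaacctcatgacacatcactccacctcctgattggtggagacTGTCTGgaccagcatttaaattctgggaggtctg
Tnc: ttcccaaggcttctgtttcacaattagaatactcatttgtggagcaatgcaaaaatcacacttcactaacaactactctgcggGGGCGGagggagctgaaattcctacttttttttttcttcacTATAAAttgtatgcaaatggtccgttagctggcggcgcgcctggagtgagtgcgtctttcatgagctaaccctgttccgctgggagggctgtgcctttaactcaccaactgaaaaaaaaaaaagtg
Sparc: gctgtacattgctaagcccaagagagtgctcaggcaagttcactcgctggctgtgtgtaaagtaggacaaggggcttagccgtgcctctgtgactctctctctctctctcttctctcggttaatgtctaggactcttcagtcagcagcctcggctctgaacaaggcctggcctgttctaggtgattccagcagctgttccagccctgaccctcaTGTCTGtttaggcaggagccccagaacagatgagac
Both strands were searched for the AP-1 motif (TGANTCA), the cAMP response element or CRE (TGACGTCA), the TEAD motif (GGAATG), the GC box (GGGCGG), the TATA box (TATAAA), the SMAD motif (CAGACA, on the other strand TGTCTG) and the CArG box of SRF. In the Spp1 window the TATA letters lay 211 to 206 bases before the start and the SMAD letters 34 to 29 bases before it. The Tnc window held the GC box 167 to 162 bases and the TATA letters 126 to 121 bases before the start, and the Sparc window held the SMAD letters 36 to 31 bases before it. The other Tnc window, not printed, lay wholly inside the same peak. It also held SMAD letters, 71 to 66 bases before its own start, so the Tnc start-site peak does not lack them. Of 32851 windows of the same length, 17.1% held the SMAD motif, 12.4% the TATA box and 32.7% the GC box. No AP-1, CRE, TEAD or CArG letters stood in these 3 windows; 6.75%, 1.55%, 12.6% and 1.47% of all windows held them.

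Across the 84 peaks, accessibility changed in both directions, and the direction differed by gene. With shMed1 #2, 18 member peaks rose and 28 fell, where the background of all 75930 tested peaks was 43.1% called, 23.6% higher and 19.5% lower. With shMed1 #4, 16 rose and 9 fell, against a background of 29.4% called, 17.3% higher and 12.1% lower. The members' shares were 54.8% and 29.8%, so that with shMed1 #4 the share called was near that of all peaks. Called means an adjusted p below 0.05 (limma on log2 values with a pseudocount of 1, Benjamini-Hochberg over all peaks). Members had a median log2 fold change of -0.11 with shMed1 #2 and -0.05 with shMed1 #4, beside -0.02 and -0.01 over all peaks. Without the 25 peaks of Fn1, the other 59 had medians of 0.07 and 0.04. With equal totals the counts became 11 higher and 34 lower with shMed1 #2, and 13 and 12 with shMed1 #4. Leaving out NTC replicate 2 or NTC replicate 3 left 5 lower calls with shMed1 #4. Both comparisons use the same NTC libraries, and in bulk libraries a change in some of the cells cannot be told apart from a smaller one in all of them. In the mean of both hairpins 16 members rose and 18 fell, where 39.8% of all peaks were called, 22.1% higher and 17.7% lower, and with equal totals these counts became 14 and 28. The 3 shMed1 #2 libraries lay wholly above NTC at 18 members and wholly below at 30, which 27.2% and 24.6% of all peaks did. For shMed1 #4 these counts were 19 and 11, against 22.7% and 19.7%. Calls of at least 0.58 in size on the log2 scale numbered 18 with shMed1 #2 and 4 with shMed1 #4, where 9.03% and 4.19% of all peaks had one.

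**Figure D1:**
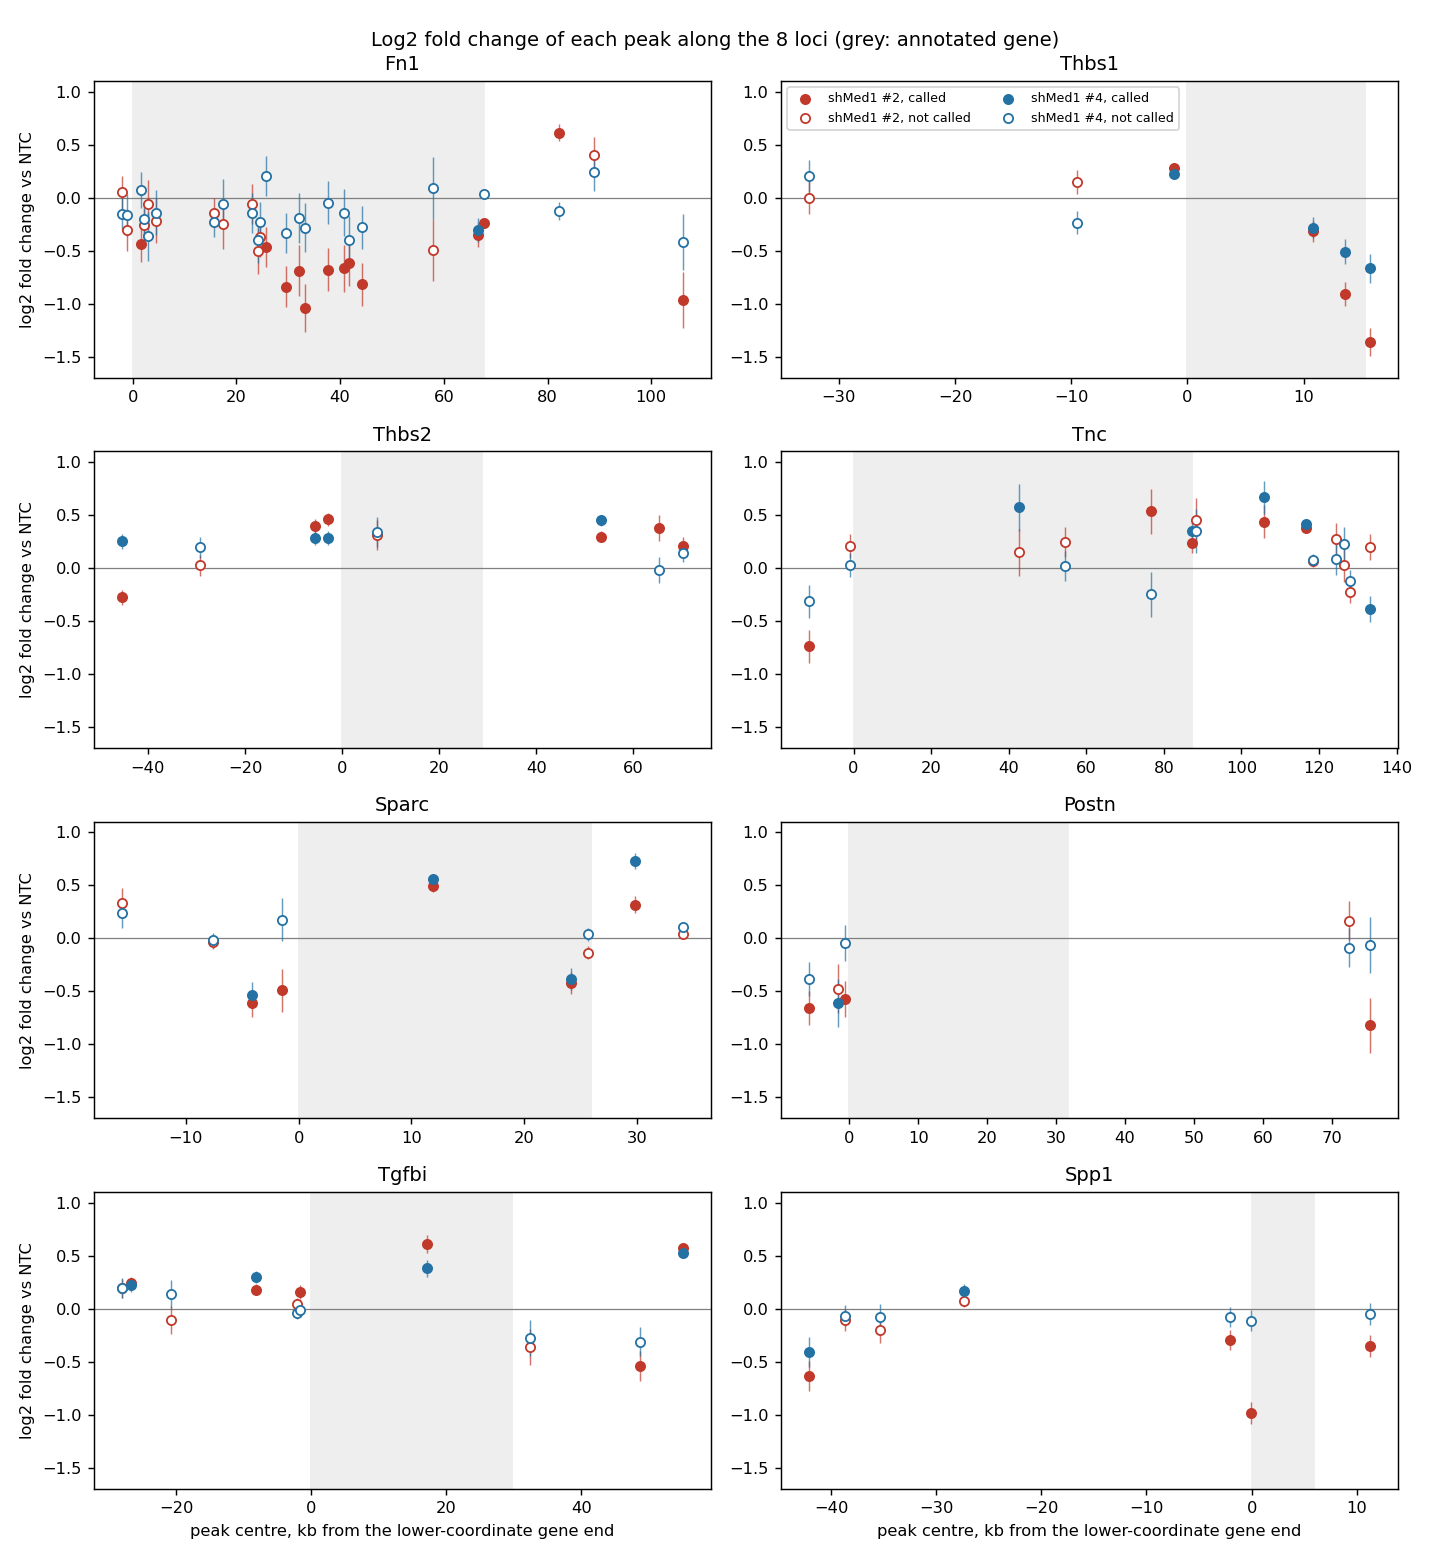
Log2 fold change against NTC with its standard error (y axis) of the 84 peaks by the position of their centre, in kb from the lower-coordinate end of each gene (x axis; grey marks the annotated gene), for shMed1 #2 in red and shMed1 #4 in blue. Filled points have an adjusted p below 0.05, and the lowest point is the Thbs1 peak at -1.36. All 19 shMed1 #2 points of the Fn1 gene-body peaks lie below 0, as did 17156 of all 35290 gene-body peaks tested.

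Fn1, Postn, Spp1 and the upper-coordinate end of Thbs1 held most of the lower calls, and Thbs2, Tgfbi and Tnc most of the higher ones. With shMed1 #2, 12 of 25 Fn1 peaks fell and 1 rose, and 3 of 5 Postn and 4 of 7 Spp1 peaks fell with none rising. In Thbs2 5 of 8, in Tgfbi 5 of 10 and in Tnc 4 of 14 rose, and 1 fell in each. Sparc had 2 higher and 3 lower of 9. With shMed1 #4, Fn1 had 1 lower call, Postn 1, and Spp1 1 lower and 1 higher. Thbs2 had 4, Tgfbi 4 and Tnc 4 higher, with 0, 0 and 1 lower, and Sparc had 2 of each. Thbs1 had 1 higher and 3 lower of 6 with each hairpin. With equal totals the shMed1 #2 counts became 1 higher and 2 lower for Tnc, 3 and 2 for Tgfbi and 3 and 1 for Thbs2, so the balance turned for Tnc.

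By place, the count in gene bodies was mostly that of Fn1. Of 28 gene-body members 3 rose and 13 fell with shMed1 #2, while of the 35290 gene-body peaks tested in all 9037 rose and 5429 fell. Fn1 supplied 19 of the 28 peaks and 10 of the 13 lower calls, and the other 9 had 3 higher and 3 lower. With shMed1 #4 the 28 had 3 higher and 4 lower, beside 6737 and 3316 in all. Of the 8 gene-end members (centre within 1 kb of an annotated end) 1 rose and 4 fell with shMed1 #2. Of all 11976 gene-end peaks tested, 1427 rose and 4262 fell with it. With shMed1 #4 the gene-end members had 1 higher and 1 lower, beside 1707 and 2714 in all. Of the 48 intergenic members 14 rose and 11 fell with shMed1 #2, beside 5183 and 3880 of 20523. With shMed1 #4 they had 12 higher and 4 lower, beside 3298 and 2274. The 45 members outside the naming rule had log2 fold changes of -0.50 to 0.46 with shMed1 #2 (7 higher and 7 lower). With shMed1 #4 these ran from -0.40 to 0.57 (6 higher and 3 lower). Some of these 45 are still described below.

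Summed over a gene's peaks, the signal was higher than NTC with each hairpin around Thbs2, Tnc, Sparc and Tgfbi, and lower around Postn; these sums were described and not tested. Tgfbi held 7974, 7695 and 7863 normalised counts in NTC, 9422, 9542 and 9743 in shMed1 #2, and 9531, 9365 and 9273 in shMed1 #4. Thbs2 held 5005, 4787 and 4721, then 5812, 5598 and 5828, then 5953, 6061 and 5867. In both genes every hairpin library lay above every NTC library. The ratio of group means was 1.22 and 1.20 for Tgfbi, 1.19 and 1.23 for Thbs2, 1.16 and 1.16 for Tnc, and 1.06 and 1.14 for Sparc, with shMed1 #2 given first. Postn, the weakest of the 8, held 465, 466 and 505 in NTC, 375, 313 and 364 in shMed1 #2, and 372, 460 and 398 in shMed1 #4, which left ratios of 0.733 and 0.857. The highest shMed1 #4 library of Postn lay just under the lowest NTC library. Fn1 and Spp1 were lower in shMed1 #2 without overlap, at ratios of 0.874 and 0.863, and overlapped NTC in shMed1 #4, at 0.965 and 1.00. Thbs1 was at 1.06 and 1.05, and overlapped NTC in shMed1 #4. The median ratio over the 8721 genes with 3 or more peaks was 1.02 with each hairpin. With equal totals Sparc overlapped NTC in shMed1 #2 (0.997), Thbs1 overlapped it in both groups (1.00 and 0.999), and Fn1 and Spp1 lay below NTC in shMed1 #4 too (0.920 and 0.953). Tgfbi, Thbs2, Tnc and Postn did not overlap NTC with either hairpin under either scaling. The share of all genes whose sums lay apart from NTC was not counted, so this is not shown to be particular to these genes. Among all single peaks, 27.2% lay wholly above NTC and 24.6% wholly below with shMed1 #2, and 22.7% and 19.7% with shMed1 #4. A sum over several peaks is a different unit, so these shares are not a background for the sums.

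**Figure D2:**
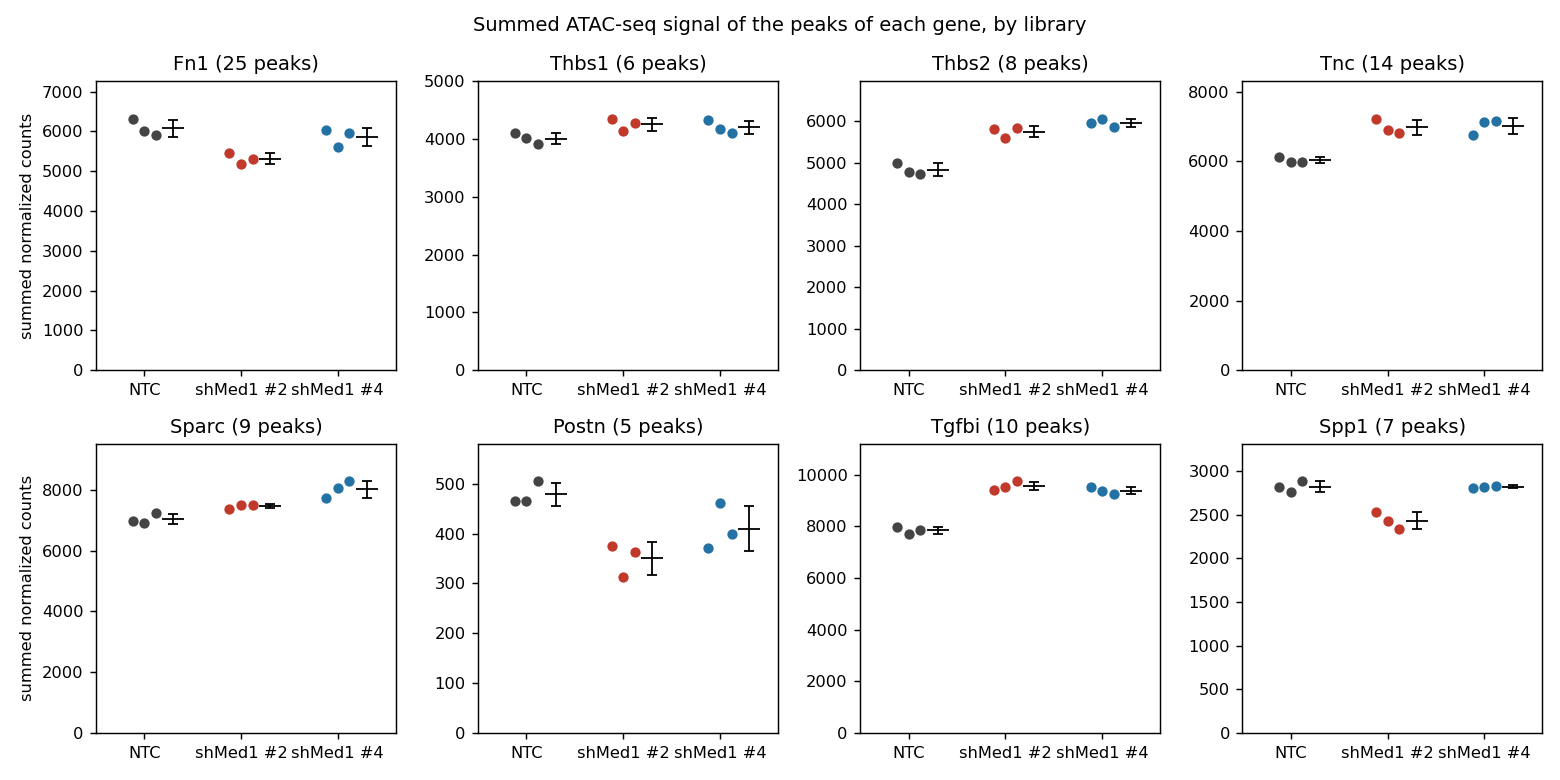
Summed normalised counts of the peaks of each gene (y axis, from 0) in each library, by group (x axis), with the group mean and SD (n = 3). Tgfbi and Thbs2 rise above all NTC libraries in both hairpin groups, and Spp1 is lower in shMed1 #2 alone.

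Since all peaks are 501 bases wide, the strongest peaks can be set side by side. In NTC they held 3358 ± 82.0 normalised counts in Fn1, 2713 ± 78.4 in Thbs1, 2373 ± 131 in Tnc, 2190 ± 93.7 in Tgfbi, 2164 ± 105 in Sparc, 1451 ± 20.9 in Thbs2, 1041 ± 21.7 in Spp1 and 159 ± 24.5 in Postn. Tnc overlapped Tgfbi, and Tgfbi overlapped Sparc, over the NTC libraries. Only the Fn1 peak of these lay within 1 kb of a gene end. A single peak carried 67.6% of the NTC sum in Thbs1 and 55.2% in Fn1, and 27.9% to 39.3% in the other 6 genes.

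Fn1 encodes fibronectin (chromosome 1, 71585473 to 71653280). Its strongest peak, at chr1:71652877-71653378, has its centre 152.5 bases inside the upper-coordinate end of the gene. It held 3452, 3304 and 3318 normalised counts in NTC, 2966, 2811 and 2779 in shMed1 #2, and 3391, 3343 and 3572 in shMed1 #4. All shMed1 #2 libraries lay below all others, while shMed1 #4 and NTC overlapped. The log2 fold change was -0.24 ± 0.04 (SE) with shMed1 #2 (limma adjusted p = 1.28e-05) and 0.03 ± 0.04 with shMed1 #4 (limma adjusted p = 0.602). Under quantile normalisation the latter was -0.14 (limma adjusted p = 0.0064). The direct difference, shMed1 #4 minus shMed1 #2, was 0.27 ± 0.04 (limma adjusted p = 3.6e-06).

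Inside Fn1 lay 19 gene-body peaks of low signal, with NTC means of 48.2 to 267 and 27 to 289 reads per library. With shMed1 #2 all 19 log2 fold changes were below 0, from -1.04 to -0.06, and 10 of the 19 fell. Of all 35290 gene-body peaks tested, 17156 were below 0 and 5429 fell. Of all peaks with a mean below 100, 13.3% fell and 6.20% rose with this hairpin. With shMed1 #4 16 of the 19 were below 0, from -0.40 to 0.20, and 1 fell, beside 17203 and 3316 of all gene-body peaks. At chr1:71618444-71618945 the libraries held 77.9, 61.8 and 87.8 in NTC, 34.3, 40.3 and 33.7 in shMed1 #2, and 52.2, 73.8 and 60.1 in shMed1 #4. The shMed1 #2 libraries were the lowest, and the other groups overlapped. Its log2 fold change was -1.04 ± 0.23 with shMed1 #2 (limma adjusted p = 0.000241) and -0.28 with shMed1 #4 (limma adjusted p = 0.37). The peak at chr1:71614800-71615301 held 101, 94.9 and 107, then 60.6, 58.7 and 49.3, then 93.2, 67.6 and 81.2, in the same order of groups. It changed by -0.84 ± 0.19 with shMed1 #2 (limma adjusted p = 0.000316), and by -0.33 with shMed1 #4 (limma adjusted p = 0.189). Further along, chr1:71629374-71629875 fell by 0.82 ± 0.20 (limma adjusted p = 0.00109) and chr1:71622813-71623314 by 0.68 ± 0.20 (limma adjusted p = 0.00564) with shMed1 #2.

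Further shMed1 #2 calls inside Fn1 were lost when 1 library was left out. That at chr1:71617296-71617797 (-0.69, limma adjusted p = 0.0164) was lost without NTC replicate 1, shMed1 #2 replicate 1 or shMed1 #2 replicate 2, with a limma adjusted p of up to 0.239. That at chr1:71626923-71627424 (-0.62) was lost without NTC replicate 2 or 3 or shMed1 #2 replicate 1 or 2, with a limma adjusted p of up to 0.114. At chr1:71625961-71626462 (-0.67) the call was lost without shMed1 #2 replicate 3 (limma adjusted p = 0.0552). At chr1:71610897-71611398 (-0.47) it was lost under quantile normalisation and without NTC replicate 1 or 2 or shMed1 #2 replicate 1 or 3 (limma adjusted p of up to 0.218). The calls at chr1:71586764-71587265 (-0.44, limma adjusted p = 0.028) and chr1:71651886-71652387 (-0.35, limma adjusted p = 0.0114) lie outside the naming rule. Neither was followed singly in this way. The latter peak was also called with shMed1 #4 (-0.30, limma adjusted p = 0.0403).

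Beyond the upper end of Fn1 the 2 named peaks moved in opposite directions with shMed1 #2. At chr1:71667400-71667901, 14.4 kb beyond it, the libraries held 483, 418 and 449 in NTC, 731, 655 and 681 in shMed1 #2, and 414, 418 and 404 in shMed1 #4. The shMed1 #2 libraries were well above the others. The log2 fold changes were 0.61 ± 0.08 (limma adjusted p = 2.2e-08) with shMed1 #2 and -0.13 ± 0.08 with shMed1 #4 (limma adjusted p = 0.252). The difference of shMed1 #4 from shMed1 #2 was -0.74 ± 0.08 (limma adjusted p = 8.8e-10). At chr1:71691348-71691849, 38.3 kb beyond, NTC held 51.9, 76.5 and 56.5, shMed1 #2 28.1, 38.0 and 27.1, and shMed1 #4 39.9, 40.0 and 57.9. This peak fell with shMed1 #2, by 0.96 ± 0.27 on the log2 scale (limma adjusted p = 0.00281), and was at -0.42 with shMed1 #4 (limma adjusted p = 0.242).

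Thbs1 encodes thrombospondin 1, a secreted glycoprotein that binds CD47 and activates latent TGF-beta (chromosome 2, 118111876 to 118127133). The 3 peaks toward its upper-coordinate end fell with each hairpin. The peak at chr2:118127325-118127826, 442.5 bases beyond that end, held 244, 241 and 226 normalised counts in NTC, 87.9, 97.9 and 88.7 in shMed1 #2, and 132, 166 and 149 in shMed1 #4. The 3 groups did not overlap, with NTC highest and shMed1 #2 lowest. It changed by -1.36 ± 0.13 with shMed1 #2 (limma adjusted p = 9.04e-12) and by -0.67 ± 0.13 with shMed1 #4 (limma adjusted p = 0.000126), the lowest log2 fold change among the 84 with each hairpin. Between the hairpins it differed by 0.70 ± 0.13 (limma adjusted p = 9.39e-05).

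At chr2:118125212-118125713, 1.67 kb inside that end, NTC held 323, 286 and 327, shMed1 #2 164, 149 and 185, and shMed1 #4 206, 209 and 243. NTC was again above both, and the log2 fold changes were -0.91 ± 0.12 (limma adjusted p = 6.49e-09) and -0.51 ± 0.12 (limma adjusted p = 0.00056). The difference between the hairpins, 0.40 ± 0.12 (limma adjusted p = 0.00808), was lost without shMed1 #2 replicate 2 or shMed1 #4 replicate 3, with a limma adjusted p of up to 0.0677. The third, at chr2:118122391-118122892, was chosen after its values were seen; it changed by -0.32 ± 0.10 and -0.28 ± 0.10 (limma adjusted p = 0.00829 and 0.0275). The strongest Thbs1 peak moved the other way. It lay at chr2:118110491-118110992, 1.13 kb before the lower-coordinate end, with 2783, 2727 and 2628 in NTC, 3374, 3213 and 3288 in shMed1 #2, and 3378, 3168 and 2977 in shMed1 #4. Both hairpin groups lay above NTC, at 0.28 ± 0.05 (limma adjusted p = 1.45e-06) and 0.23 ± 0.05 (limma adjusted p = 0.000109). Under quantile normalisation the call with shMed1 #4 was lost (limma adjusted p = 0.0955).

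Thbs2, for thrombospondin 2, an inhibitor of angiogenesis (chromosome 17, 14665500 to 14694262, minus strand), had no peak within 1 kb of an end. Its strongest peak, at chr17:14718662-14719163, 24.7 kb upstream of the start, held 1471, 1454 and 1429 in NTC, 1731, 1776 and 1833 in shMed1 #2, and 2016, 2007 and 1921 in shMed1 #4. The groups did not overlap, with NTC lowest. It rose by 0.29 ± 0.05 with shMed1 #2 (limma adjusted p = 6.37e-06) and by 0.45 ± 0.05 with shMed1 #4 (limma adjusted p = 1.45e-09). A further pair of peaks, below the lower end at 5.54 kb and 2.91 kb, rose with each hairpin, by 0.40 and 0.28 and by 0.46 and 0.28. The limma adjusted p was 3.76e-06 and 0.0009 for the first, and 6.44e-08 and 0.000581 for the second. This pair lies outside the naming rule and was not followed singly through the other processing choices. One peak was called in opposite directions by the hairpins and was named after its values were seen. At chr17:14619905-14620406, 45.3 kb below the lower end, NTC held 769, 713 and 702, shMed1 #2 634, 592 and 575, and shMed1 #4 889, 855 and 858. Its groups were wholly apart, at -0.28 ± 0.07 (limma adjusted p = 0.00129) and 0.25 ± 0.07 (limma adjusted p = 0.00509), and they differed by 0.53 ± 0.07 (limma adjusted p = 8.78e-08).

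Tnc encodes tenascin C, a hexameric glycoprotein that modulates adhesion to fibronectin (chromosome 4, 63959785 to 64047015, minus strand). The start-site peak at chr4:64046797-64047298, which covers the whole Tnc window printed above, held 313, 354 and 320 in NTC, 353, 377 and 440 in shMed1 #2, and 376, 437 and 444 in shMed1 #4. All shMed1 #4 libraries lay above NTC, and shMed1 #2 overlapped it. It rose by 0.35 ± 0.10 with shMed1 #4 (limma adjusted p = 0.00469) and by 0.24 ± 0.10 with shMed1 #2 (limma adjusted p = 0.038). The shMed1 #2 call was lost with equal totals, under quantile normalisation, and without NTC replicate 1, NTC replicate 3, shMed1 #2 replicate 2 or shMed1 #2 replicate 3, with a limma adjusted p of up to 0.266. The peak centred 988.5 bases upstream of the start, chr4:64047753-64048254, and that at the lower end, chr4:63958647-63959148, were not called, at 0.45 and 0.35 and at 0.21 and 0.03.

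The strongest Tnc peak, at chr4:64076262-64076763 and 29.5 kb upstream, held 2524, 2313 and 2283 in NTC, 3032, 3186 and 3048 in shMed1 #2, and 3133, 3218 and 3144 in shMed1 #4. Every hairpin library exceeded every NTC library, and the log2 fold changes were 0.38 ± 0.04 (limma adjusted p = 1.13e-09) and 0.42 ± 0.04 (limma adjusted p = 3.08e-10). A weaker peak 18.5 kb upstream, at chr4:64065259-64065760, held 87.7, 94.0 and 81.8, then 115, 119 and 124, then 135, 125 and 161. It rose by 0.44 ± 0.15 (limma adjusted p = 0.018) and by 0.67 ± 0.15 (limma adjusted p = 0.000688). The first of these was lost with equal totals and without NTC replicate 3 or shMed1 #2 replicate 3 (limma adjusted p of up to 0.0714). One peak fell: chr4:63948059-63948560, 11.5 kb below the lower end, with 166, 174 and 211 in NTC, 133, 93.3 and 104 in shMed1 #2, and 127, 126 and 197 in shMed1 #4. This was -0.74 ± 0.15 with shMed1 #2 (limma adjusted p = 0.000113), and -0.31 with shMed1 #4 (limma adjusted p = 0.124). Another, chr4:64092690-64093191, 45.9 kb upstream, fell with shMed1 #4 alone (-0.39, limma adjusted p = 0.015), a call lost without NTC replicate 2, NTC replicate 3 or shMed1 #4 replicate 2 (limma adjusted p of up to 0.112). In the gene body, chr4:64036322-64036823 was at 0.54 with shMed1 #2 (limma adjusted p = 0.0388), lost with equal totals and without NTC replicate 1 or 3 or shMed1 #2 replicate 1 or 2 (limma adjusted p of up to 0.172).

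**Figure D3:**
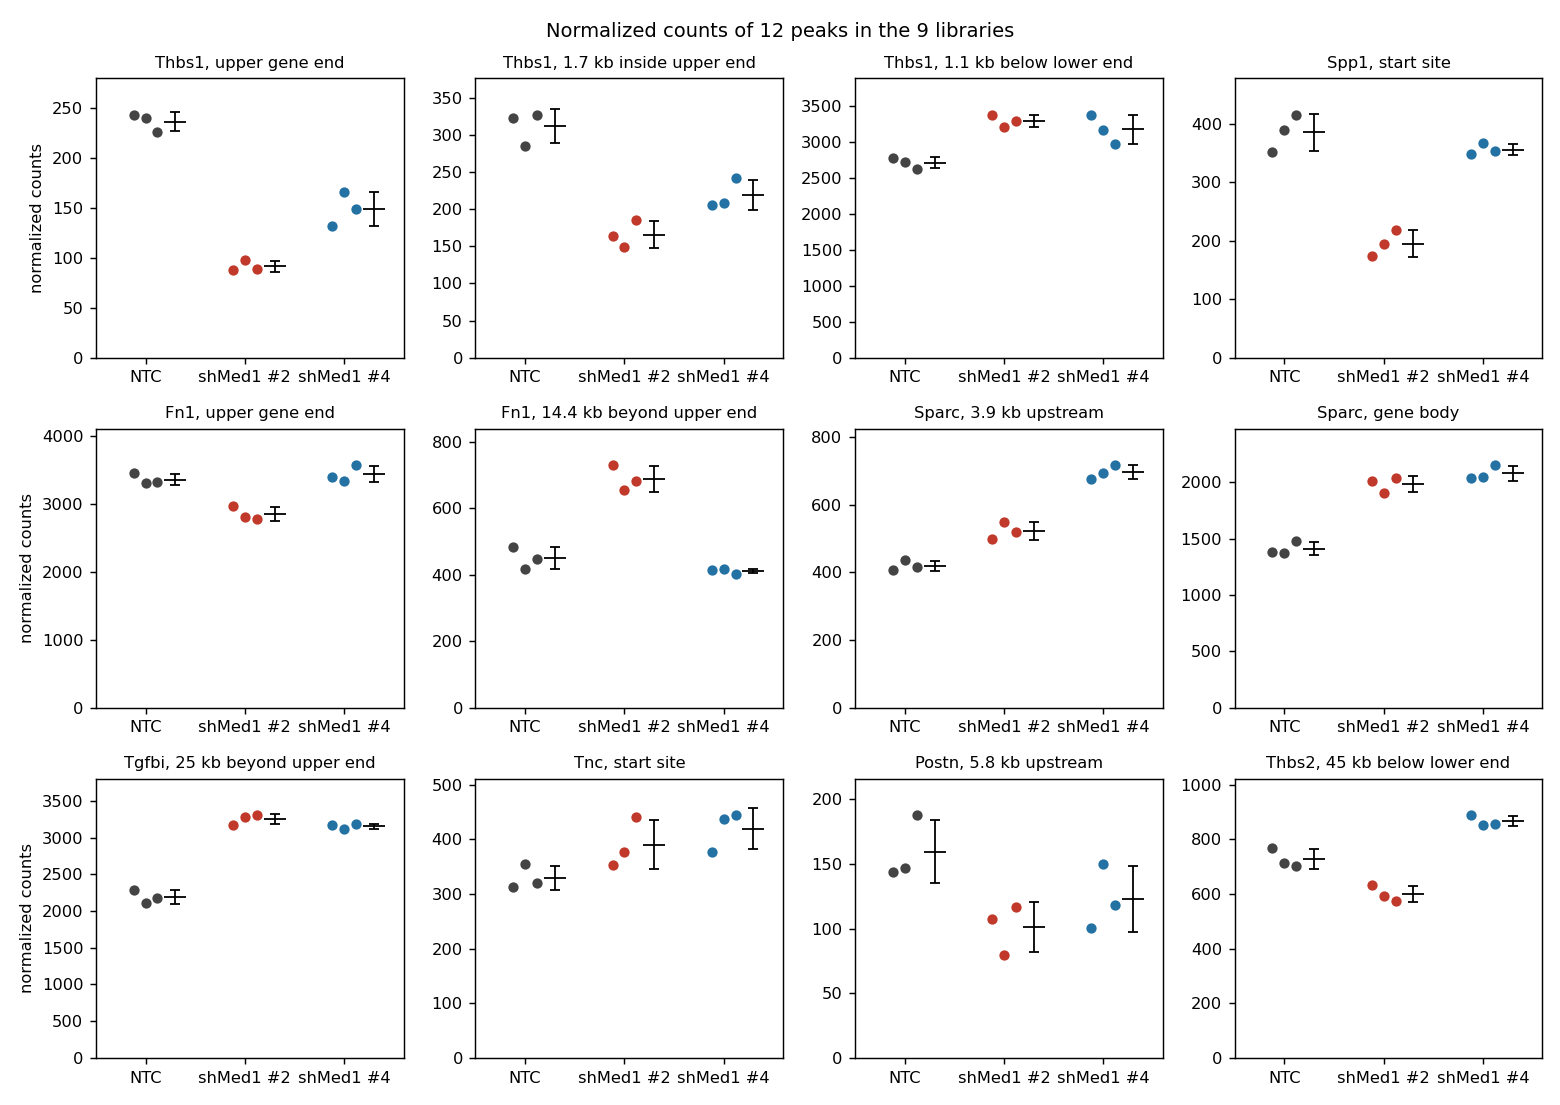
Normalised counts (y axis, from 0) of 12 member peaks in each library, by group (x axis), with the mean and SD (n = 3). The start-site peak of Spp1 is low in shMed1 #2 alone, and the upper-end peak of Thbs1 is lower in both hairpin groups.

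Sparc encodes SPARC, a collagen-binding glycoprotein (chromosome 11, 55394159 to 55420080, minus strand). A gene-body peak 14.0 kb downstream of the start, at chr11:55405836-55406337, held 1385, 1369 and 1476 in NTC, 2014, 1900 and 2038 in shMed1 #2, and 2035, 2043 and 2152 in shMed1 #4. It rose by 0.49 ± 0.05 (limma adjusted p = 5.18e-11) and by 0.56 ± 0.05 (limma adjusted p = 5.5e-12), with every hairpin library above every NTC library. The peak 3.88 kb upstream of the start, at chr11:55423707-55424208, held 406, 436 and 417, then 498, 551 and 521, then 677, 694 and 718. It was in order NTC, shMed1 #2, shMed1 #4, with log2 fold changes of 0.32 ± 0.08 (limma adjusted p = 0.000982) and 0.73 ± 0.08 (limma adjusted p = 2.89e-10). The difference of the hairpins was 0.41 ± 0.08 (limma adjusted p = 6.9e-05).

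The start-site peak of Sparc, at chr11:55419623-55420124, which holds 44 bases of the printed window, was at 1340 ± 104 in NTC, 1218 ± 44.6 in shMed1 #2 and 1376 ± 106 in shMed1 #4 (SD, n = 3). It was not called with either hairpin (limma adjusted p = 0.0715 and 0.679). The strongest peak, 8.18 kb upstream, was not called either, at 0.04 ± 0.05 and 0.10 ± 0.05 (limma adjusted p = 0.495 and 0.119). Beyond the lower end, the peak at chr11:55389745-55390246 held 284, 289 and 310 in NTC, 230, 185 and 165 in shMed1 #2, and 206, 169 and 240 in shMed1 #4. All 6 hairpin libraries were below NTC, and it fell by 0.62 ± 0.12 (limma adjusted p = 6.08e-05) and by 0.53 ± 0.12 (limma adjusted p = 0.000725). A weak peak nearer that end, chr11:55392434-55392935, was at -0.49 with shMed1 #2 (limma adjusted p = 0.0457), a call lost under quantile normalisation and without NTC replicate 2 or 3 or shMed1 #2 replicate 1 or 3 (limma adjusted p of up to 0.190).

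Postn encodes periostin, a matrix protein that binds integrins and collagen (chromosome 3, 54359267 to 54391041, plus strand). Its 5 peaks are weak, and none lay in the gene body. At chr3:54353174-54353675, 5.84 kb upstream, NTC held 144, 147 and 188, shMed1 #2 107, 79.5 and 117, and shMed1 #4 100, 150 and 118. With shMed1 #2 it fell by 0.66 ± 0.16 (limma adjusted p = 0.000806), and with shMed1 #4 it was at -0.38 (limma adjusted p = 0.0665). The peak 645.5 bases upstream, chr3:54358371-54358872, held 112, 116 and 105, then 79.9, 59.9 and 85.4, then 124, 93.8 and 107. It fell with shMed1 #2 (-0.57 ± 0.17, limma adjusted p = 0.00587), which did not hold without shMed1 #2 replicate 2 (limma adjusted p = 0.0638), and it was at -0.04 with shMed1 #4 (limma adjusted p = 0.874). The lower call with shMed1 #4, 1.65 kb upstream (-0.61, limma adjusted p = 0.0373), was lost without NTC replicate 1, 2 or 3 and without shMed1 #4 replicate 1 or 3 (limma adjusted p of up to 0.118). Far beyond the gene, 43.8 kb past its upper end, chr3:54434579-54435080 held 62.7, 55.3 and 48.4, then 27.2, 33.4 and 32.0, then 44.0, 75.1 and 44.5. It fell with shMed1 #2 (-0.82 ± 0.26, limma adjusted p = 0.00957), which did not hold without NTC replicate 1 (limma adjusted p = 0.0504).

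Tgfbi encodes TGF-beta-induced protein, which shares fasciclin domains with periostin (chromosome 13, 56609586 to 56639359, plus strand). No peak lay within 1 kb of its start. The nearest, 1.63 kb upstream, was at 0.16 with shMed1 #2 (limma adjusted p = 0.0483) and -0.01 with shMed1 #4 (limma adjusted p = 0.895). That peak lies outside the naming rule and was not followed singly through the other processing choices. The strongest peak lay 25.3 kb beyond the upper end, at chr13:56664420-56664921. It held 2290, 2104 and 2175 in NTC, 3174, 3275 and 3305 in shMed1 #2, and 3166, 3115 and 3180 in shMed1 #4, with all hairpin libraries above NTC. It rose by 0.57 ± 0.04 (limma adjusted p = 4.32e-15) and by 0.53 ± 0.04 (limma adjusted p = 3.13e-13). The gene-body peak at chr13:56626525-56627026 held 378, 378 and 393 in NTC, 567, 578 and 609 in shMed1 #2, and 506, 494 and 495 in shMed1 #4. It rose by 0.61 ± 0.08 (limma adjusted p = 2.01e-08) and by 0.38 ± 0.08 (limma adjusted p = 0.00025). One Tgfbi peak fell, chr13:56658014-56658515, with 196, 253 and 262, then 173, 165 and 148, then 221, 140 and 219. It was lower with shMed1 #2 (-0.54 ± 0.14, limma adjusted p = 0.00129), and overlapped NTC in shMed1 #4 (-0.31, limma adjusted p = 0.0815).

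Spp1 encodes osteopontin, a secreted phosphoprotein that binds CD44 and integrins (chromosome 5, 104435111 to 104441053, plus strand). Its start-site peak, chr5:104434829-104435330, with its centre 31.5 bases upstream of the start, covers the whole Spp1 window printed above. It held 352, 389 and 415 in NTC, 173, 193 and 218 in shMed1 #2, and 347, 367 and 353 in shMed1 #4. The shMed1 #2 libraries were far below the rest, while shMed1 #4 overlapped NTC. The log2 fold changes were -0.98 ± 0.10 (limma adjusted p = 4.07e-11) and -0.11 ± 0.10 (limma adjusted p = 0.433), and the hairpins differed by 0.87 ± 0.10 (limma adjusted p = 4.62e-09). This was the largest difference between the hairpins in size among the 84 peaks.

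The peak 42.1 kb upstream of Spp1, chr5:104392765-104393266, held 167, 165 and 201 in NTC, 120, 124 and 96.9 in shMed1 #2, and 121, 136 and 141 in shMed1 #4. It fell with shMed1 #2 (-0.64 ± 0.14, limma adjusted p = 0.000279) and with shMed1 #4 (-0.41 ± 0.14, limma adjusted p = 0.0241). The second call was lost without NTC replicate 3 or shMed1 #4 replicate 1 (limma adjusted p of up to 0.162). The strongest Spp1 peak, chr5:104407525-104408026, 27.3 kb upstream, held 1049, 1017 and 1058 in NTC, 1210, 1071 and 1019 in shMed1 #2, and 1171, 1115 and 1232 in shMed1 #4. It was at 0.08 with shMed1 #2 (limma adjusted p = 0.35) and rose by 0.17 with shMed1 #4 (limma adjusted p = 0.0381). That call was lost under 7 of the alternatives, among them equal totals, quantile normalisation and without NTC replicate 1, 2 or 3 or shMed1 #4 replicate 1 or 3, with a limma adjusted p of up to 0.223.

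Between the hairpins themselves, 18 member peaks were higher and 7 lower with shMed1 #4 than with shMed1 #2. Over all tested peaks 21.5% were called, 8.48% higher and 13% lower. Fn1 gave 6 of the higher peaks, Sparc 3, and Thbs1, Thbs2, Postn and Spp1 2 each, and Tnc 1. Without shMed1 #2 replicate 2 the higher count was 11, and without shMed1 #4 replicate 1 or 3 the lower count was 4. The non-overlap counts were 22 higher and 8 lower, beside a background of 15.6% and 18%.

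By strength, 12 of the 18 higher calls with shMed1 #2 lay in peaks with a mean of 500 or more normalised counts. The 28 lower calls were spread over peaks below 100, with 12, peaks from 100 to 500, with 14, and peaks at 500 or more, with 2. Of the 26 members below 100, 1 rose and 12 fell, where 6.20% and 13.3% of all 21080 such peaks did. Fn1 supplied 17 of these 26 and 9 of the 12, and of the other 9 weak peaks 1 rose and 3 fell. Of the 38 members from 100 to 500, 5 rose and 14 fell, beside 6904 and 7262 of all 31602 such peaks. Of the 20 members at 500 or more, 60% rose, where 41.8% of all 23248 did. With shMed1 #4, 12 of these 20 rose and none fell, where 34.8% of all such peaks rose and 14.2% fell. In the 2 lower classes shMed1 #4 gave 1 higher and 1 lower call, and 3 higher and 8 lower. Of all peaks below 100, 4.73% rose and 6.58% fell with it, and of those from 100 to 500, 12.9% and 14.1%. Without Fn1 the other 59 peaks had 17 higher and 16 lower calls with shMed1 #2, and 16 and 8 with shMed1 #4.

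**Figure D4:**
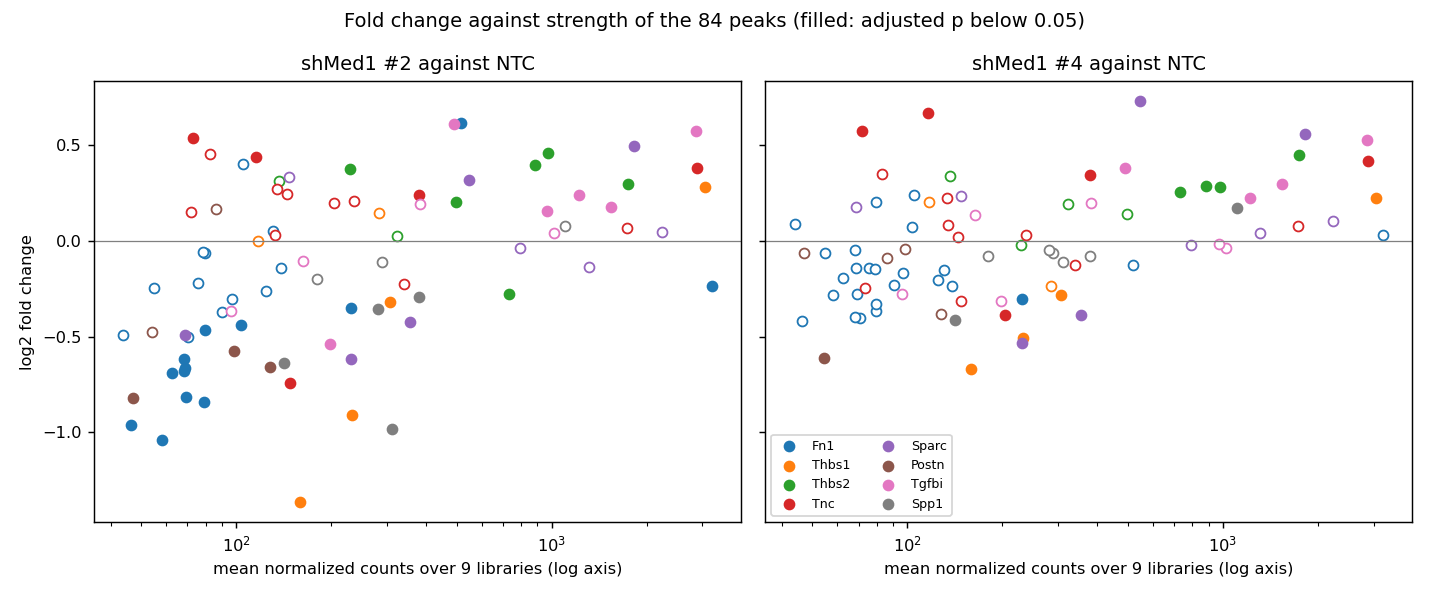
Log2 fold change (y axis) against mean normalised count over the 9 libraries (x axis, log axis) for the 84 peaks, coloured by gene, with called peaks filled. With shMed1 #2 most called points below 100 are under 0, and most called points at 500 or more are above it.

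The proteins above act through cell-surface receptors, and the peaks of 16 of the 18 receptor genes listed (integrins, Cd44, Cd47, syndecans, Stab1, Lrp1 and Cacna2d1; not Itga4 and Cd36, which had none) were called in both directions. Of their 171 peaks 55 rose and 32 fell with shMed1 #2 (32.2% and 18.7%), and 36 and 12 with shMed1 #4 (21.1% and 7.02%). Over all tested peaks these shares were 23.6% and 19.5%, and 17.3% and 12.1%, so that with shMed1 #4 28.1% of the list was called beside 29.4% of all. With equal totals the list's counts were 50 and 42, and 28 and 25, and those of all peaks 13498 and 22132, and 9329 and 14938. At chr16:49951888-49952389, near the thrombospondin receptor Cd47, the group means were 2948 ± 198 in NTC, 4307 ± 134 in shMed1 #2 and 4149 ± 49.2 in shMed1 #4 (SD, n = 3), a rise of 0.52 ± 0.04 in the mean of both hairpins (limma adjusted p = 3.71e-16). A gene-body peak of Itgb3, the integrin beta3 subunit that binds osteopontin and fibronectin, rose by 0.65 ± 0.05 (limma adjusted p = 3.37e-14), from 942 ± 82.1 to 1414 ± 75.6 and 1532 ± 19.0. A gene-end peak of Itga5, the alpha5 subunit of the fibronectin receptor, fell by 0.28 ± 0.05 (limma adjusted p = 2.78e-06), from 2047 ± 56.3 to 1638 ± 135 and 1734 ± 46.1. Itga5 was among the genes with more lower than higher calls, at 2 higher and 5 lower of 11 with shMed1 #2 and 1 and 6 with shMed1 #4. Lrp1 had 3 and 7 of 15 with shMed1 #2 but 4 and 2 with shMed1 #4. Stab1, an endocytic receptor for SPARC, had 4 and 0 of 4 with shMed1 #2 and 2 and 0 with shMed1 #4.

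Related matricellular and fibril genes were counted in the same way. Of 200 peaks of 26 genes (Vtn had none), 78 rose and 29 fell with shMed1 #2 (39% and 14.5%), and 52 and 15 with shMed1 #4 (26% and 7.5%), beside the same shares of all peaks (23.6% and 19.5%, and 17.3% and 12.1%). With equal totals the list's counts were 58 and 43, and 34 and 33, beside 13498 and 22132, and 9329 and 14938, over all peaks. A gene-body peak of Smoc2, a SPARC-related protein, rose by 0.59 ± 0.05 (limma adjusted p = 5.49e-15), from 1989 ± 151 to 3445 ± 238 and 2617 ± 196. Ccn5 rose at chr2:163800943-163801444 by 0.47 ± 0.04 (limma adjusted p = 5.28e-14), and 7 of its 9 peaks rose with shMed1 #2 and none fell. A Ccn4 peak fell by 0.43 ± 0.09 (limma adjusted p = 0.000128) and a Smoc1 peak by 0.54 ± 0.12 (limma adjusted p = 0.000193). Thbs4, a further thrombospondin, had 3 of its 4 peaks lower with shMed1 #2.

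For each member, the 2 other protein-coding genes most like it in summed signal were found by Pearson r on the log2 scale over the 9 libraries, among 8720 genes with 3 or more peaks. These are descriptions, and the libraries share the 3 groups and their scaling. Tgfbi was most like Bnip3 (r = 0.996) and Col15a1 (r = 0.995), and Thbs2 most like Pfkp (r = 0.995) and Prim2 (r = 0.994). The others were Serpina12 and Tmem158 for Tnc (r = 0.985 each), Psph and Mki67 for Spp1 (r = 0.980 each), and Pds5b (r = 0.975) and Rabep1 (r = 0.963) for Postn. Acot11 (r = 0.974) and Gm6569 (r = 0.965) came for Sparc, Map2 (r = 0.973) and Axl (r = 0.972) for Thbs1, and Glyctk (r = 0.966) and Rrm1 (r = 0.960) for Fn1.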

How the data were processed

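ATAC-seq was run on 9 libraries, 3 each of NTC, shMed1 #2 and shMed1 #4. The submitters' processing notes name Trim Galore for trimming, BWA for alignment (mm10, GRCm38), MACS2 for peaks and featureCounts (Subread) for counting. For versions, duplicate removal, peak merging and the transposase offset, nothing is stated in the sources used here. The deposited signal per peak is the authors' DESeq2-normalised count, reads divided by a size factor. In every library 100% of values stood at whole multiples of 1 step (within 0.01 of a whole number), with size factors of 0.799 to 1.22. Depth was 34.8 to 53.7 M reads in peaks.

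Log2 of the value plus 1 was fitted with limma 3.58.1 under R 4.3.3, with trend, on the 75930 peaks whose mean over all libraries reached 10 (6 did not), as a mean per group. Contrasts were shMed1 #2 against NTC, shMed1 #4 against NTC, their mean against NTC, and shMed1 #4 against shMed1 #2. Two-sided p-values were adjusted over all peaks (Benjamini-Hochberg), with a threshold of 0.05. The script was tested on simulated data. Errors are limma standard errors for fold changes and SDs for means. Fold changes are on the log2(value + 1) scale, which understates those of low peaks.

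Peaks within 1 kb of an annotated end (RefSeq, GRCm38.p6) were gene-end, others gene-body or intergenic. Coordinates are as deposited; their base is not stated. Strand was known for the genes with a promoter window. Members, lists and tests were chosen with earlier results of these data known. For each member gene the rule named its gene-end and strongest peaks, the smallest adjusted p each way in the mean of both hairpins, and calls of at least 0.58 in size with a hairpin or between the hairpins, 39 peaks in all. From each list it named at most 2 peaks each way. P-values set differences of group means against the spread between libraries of the same group. What that spread covers is not known, since separate transductions are not stated. Alternatives covered pseudocount, filters, scaling, weights, a replicate block, peak assignment, and each library left out. The level of 1 marker gene is not reported here.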

Additional observations from a re-analysis of the deposited data

Results flagged for a closer look

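The difference between the hairpins, shMed1 #4 minus shMed1 #2 on the log2 scale, passed the limma test at 25 member peaks, each with the same NTC libraries behind its 2 effects. Groups of 3 libraries were too small for a search for single outlying samples.

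Around Fn1 the differences were 0.51 at position 71586764, 0.67 at 71610897, 0.51 at 71614800, 0.76 at 71618444 and 0.63 at 71622813, all in the gene body. They were 0.27 at the gene-end peak 71652877 and -0.74 at 71667400. In Thbs1 they were -0.38 at 118102103, 0.40 at 118125212 and 0.70 at 118127325. In Thbs2 they were 0.53 at 14619905, -0.18 at 14662339, 0.15 at 14718662 and -0.40 at 14730602.

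Around Tnc the differences were 0.43 at 63948059, -0.78 at 64036322 and -0.59 at 64092690. For Sparc they were 0.67 at 55392434, 0.17 at 55419623 and 0.41 at 55423707. Postn gave 0.53 at 54358371 and 0.76 at 54434579, and Spp1 0.87 at 104434829 and 0.31 at 104446127. Tgfbi gave -0.23 at 56626525.

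Alternatives were run for the 19 of these peaks named by the rule, and 12 of the differences lost their call somewhere. Without 1 library, those lost were 0.76 at 71618444 (without shMed1 #4 replicate 2, limma adjusted p = 0.0904) and -0.78 at 64036322 (without shMed1 #4 replicate 1, limma adjusted p = 0.0505). Also lost were 0.63 at 71622813 (without shMed1 #2 replicate 2 or 3 or shMed1 #4 replicate 3, limma adjusted p of up to 0.113) and 0.67 at 55392434 (without shMed1 #2 replicate 1 or shMed1 #4 replicate 2, limma adjusted p of up to 0.0610). At Postn, 0.53 was lost without shMed1 #2 replicate 2 or shMed1 #4 replicate 1 (limma adjusted p of up to 0.159), and 0.76 without shMed1 #2 replicate 1 or 3 or shMed1 #4 replicate 2 (limma adjusted p of up to 0.249). The difference of 0.40 at 118125212 was lost without shMed1 #2 replicate 2 or shMed1 #4 replicate 3 (limma adjusted p of up to 0.0677), and 0.15 at 14718662 without shMed1 #2 replicate 1 or 2 or shMed1 #4 replicate 1 or 2 (limma adjusted p of up to 0.0919). The other 4, at 71614800, 55419623, 56626525 and 63948059, were lost under 4 to 11 of the 17 alternatives.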

How the results depend on the processing

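Of 156 values of named peaks (39 peaks in 4 contrasts), 92 were called. Of these, 55 held under all 17 alternatives, 1 (Fn1 peak 71691348 with shMed1 #2) under the 16 that kept it, since a mean of at least 50 removes it, and 36 lost their call under at least 1. Calls were lost 114 times and gained 37 times, the gains at 17 values. Values without a call changed sign 31 times while staying without one. The only value that turned over into a call lay at the Fn1 gene-end peak 71652877, where shMed1 #4 went from 0.03 to -0.14 (limma adjusted p = 0.0064) under quantile normalisation. The nearest-gene-end assignment gave the same 84 peaks.

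With equal totals, 11 members were higher with shMed1 #2 and 28 were lower in the mean of both hairpins, beside 18 and 18. The summed log2 ratios of both hairpins to NTC then fell from -0.12 to -0.20 for Fn1, 0.08 to -0.00087 for Thbs1, 0.28 to 0.20 for Thbs2, 0.21 to 0.14 for Tnc, 0.13 to 0.056 for Sparc, 0.27 to 0.20 for Tgfbi and -0.11 to -0.18 for Spp1. Leaving out 1 library gave 5 to 9 lower calls with shMed1 #4 (5 without NTC replicate 2 or 3), 11 to 17 higher and 4 to 7 lower calls between the hairpins, and 13 to 19 higher calls with shMed1 #2.

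Deviations of same-numbered libraries from their group means correlated at -0.084 to 0.033, and those of differently numbered ones at -0.036 to 0.076. These come from groups of 3 libraries, so they do not decide whether a replicate number marks a shared batch. With a replicate block, 16 members were higher and 28 lower with shMed1 #2, 15 and 9 with shMed1 #4, and 17 and 6 between the hairpins. Depth limits the weakest Fn1 and Postn peaks, at 27 reads or more per library.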
